A study of Rattus norvegicus with 2 samples.

Results

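Sh3bgr and 9 other genes of its family or of striated muscle were examined in 2 populations of rat natural killer (NK) cells, to ask whether the muscle-type signals of Sh3bgr, Tnni2 and Myh2 came with those of other muscle genes or alone. The genes were chosen by symbol, namely Sh3bgr, Sh3bgrl, Sh3bgrl3, Tnni2, Tnnt3, Tnnc2, Myh2, Acta1, Ckm and Mylpf, and all probe sets annotated with 1 of these symbols alone were taken. That gave 9 probe sets for 8 of the 10 genes, of 31099 probe sets and 14217 genes in the series, and Sh3bgrl and Mylpf were not analysed here. Sh3bgr, Tnni2 and Myh2 had been picked because they differed between these same arrays, so their differences are given as a description.

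The cells came from spleens of PVG.7b rats aged 8 to 12 weeks, with 9 rats in the study, and no treatment of the animals is labelled. Mononuclear cells were first cleared of cells bearing CD5, CD68, CD45RA, the alpha-beta T cell receptor or the immunoglobulin kappa chain. All sorted cells lacked CD3 and carried NKR-P1A. The NKR-P1B+ group carried the inhibitory receptor NKR-P1B without Ly49s3, and the Ly49s3+ group the activating receptor Ly49s3 without NKR-P1B, each at a purity above 90% per the labels. Each group is 1 array without replicates, so nothing could be tested and each difference describes these 2 arrays.

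Muscle contracts when calcium binds the troponin complex on the thin filament and frees actin for the motor protein myosin. Troponin C binds the calcium, troponin I holds the filament inhibited and troponin T anchors both to tropomyosin, and fast and slow fibres use different genes for each of these subunits. Lymphocytes use non-muscle actins, myosins and tropomyosins instead. SH3BGR, first described as a gene of human heart and skeletal muscle, belongs to a small family of proteins with a thioredoxin-like fold.

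The promoters of the muscle genes show what the annotation places at their start sites, and are printed for the pair that was higher in Ly49s3+ cells (Tnni2 and Myh2) beside the pair that was below the detection floor on both arrays (Ckm and Acta1). The sequences are those of RefSeq for the rat assembly GRCr8, 250 bases before to 50 bases after the start of the gene, 5′ to 3′ on the strand of the gene. Capitals mark matches on either strand to the E-box CANNTG bound by myogenic factors, the M-CAT element CATTCC, the TATA box TATAAA, the MEF2 site and the CArG box bound by serum response factor.
Tnni2, GRCr8 chr1:207024240-207024539, plus strand: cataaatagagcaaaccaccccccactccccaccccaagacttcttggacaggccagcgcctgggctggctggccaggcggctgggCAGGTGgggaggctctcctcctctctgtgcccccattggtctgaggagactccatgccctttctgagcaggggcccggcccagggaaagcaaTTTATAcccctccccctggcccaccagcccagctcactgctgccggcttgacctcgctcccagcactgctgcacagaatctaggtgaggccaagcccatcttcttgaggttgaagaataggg
Myh2, GRCr8 chr10:52355489-52355788, plus strand: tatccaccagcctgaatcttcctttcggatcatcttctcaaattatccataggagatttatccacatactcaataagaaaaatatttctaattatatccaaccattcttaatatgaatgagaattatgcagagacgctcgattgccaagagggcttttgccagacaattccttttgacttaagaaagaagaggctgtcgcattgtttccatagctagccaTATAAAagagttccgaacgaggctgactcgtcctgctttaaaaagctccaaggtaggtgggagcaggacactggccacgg
Ckm, GRCr8 chr1:88189211-88189510, plus strand: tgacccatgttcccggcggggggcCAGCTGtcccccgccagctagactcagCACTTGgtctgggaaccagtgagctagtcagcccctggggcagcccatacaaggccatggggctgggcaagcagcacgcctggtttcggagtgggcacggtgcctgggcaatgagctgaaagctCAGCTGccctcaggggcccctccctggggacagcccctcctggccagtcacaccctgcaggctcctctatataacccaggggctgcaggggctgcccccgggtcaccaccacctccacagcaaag
Acta1, GRCr8 chr19:68784145-68784444, minus strand: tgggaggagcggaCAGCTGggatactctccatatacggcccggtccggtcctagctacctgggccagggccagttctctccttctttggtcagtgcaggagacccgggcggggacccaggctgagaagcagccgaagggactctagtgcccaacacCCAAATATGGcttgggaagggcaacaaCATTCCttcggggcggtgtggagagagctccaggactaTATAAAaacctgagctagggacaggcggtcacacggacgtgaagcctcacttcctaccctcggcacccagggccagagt
The Tnni2 window held 1 E-box and 1 TATA box, and that of Myh2 held 1 TATA box and 0 E-boxes. The Ckm window held 3 E-boxes and 0 TATA boxes. That of Acta1 held 1 E-box, 1 M-CAT element, 1 TATA box and 1 CArG box. Of the 33469 promoters of the same length, 72.1% held an E-box, 14.2% an M-CAT element, 14.2% a TATA box, 3.29% a MEF2 site and 1.64% a CArG box. The MEF2 site and the TATA box can overlap, but no MEF2 site was found in these windows. Among these motifs Tnni2 and Myh2 thus shared only the letters of the TATA box, which Acta1 held too. In Tnni2 they read TTTATA, a match on the opposite strand, while in Myh2 and Acta1 they lie on the strand of the gene. The distance of the letters from the start was not compared. Other genes start within the annotated span of Tnni2, as given below. Whether its window lies at the start of the troponin transcript was not tested. Variants such as the tatataa of the Ckm window were not counted, so the 0 given for Ckm is for the exact letters. A match is a description of the letters and no evidence of binding. Of the 10 genes 6 were in the promoter table, with Tnnc2 (3 E-boxes) and Sh3bgrl3 (1 E-box) as the others, and Sh3bgr, Sh3bgrl, Tnnt3 and Mylpf were not.

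Signals are MAS5 intensities in arbitrary units, and a signal at or below 20.4, the median of all signals of both arrays, was treated as not above the floor. A gene with a signal above the floor in at least 1 of the populations was called measured, and a ratio with a floored signal is a lower bound, written as "at least". Genes counted as within 1.5-fold include those with such a bound under 1.5-fold. Differences are log2 of the NKR-P1B+ signal minus log2 of the Ly49s3+ signal, so negative values are higher in Ly49s3+ cells. The median signal was 19.6 in NKR-P1B+ cells and 21.3 in Ly49s3+ cells, and the median difference of the 9114 measured genes was −0.02 with an SD of 0.42 across genes. Poly-A control transcripts, which are spiked into the RNA before labelling, were higher for the Ly49s3+ sample in 16 of 17 probe sets above the floor, with a mean difference of −0.49. The 18 probe sets of the hybridisation controls had a mean difference of 0.024 with an SD of 0.10. Precision is limited by the number of arrays.

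The labelled cell type was checked against 12 NK markers. All 10 with a probe set of their own were above the floor on both arrays, among them the activating receptor gene Ncr1 (425 in NKR-P1B+ cells and 318 in Ly49s3+ cells) and the granule membrane gene Nkg7 (3266 and 2789). Of 10 skeletal muscle fibre markers with a probe set, 5 (50%) were above the floor on each array, namely Tnni2, Tnnt3, Tnnc2, Myh1 and Myh2. Over all genes with a probe set 60.5% were above the floor in NKR-P1B+ cells and 61.9% in Ly49s3+ cells. The fibre markers below the floor on both arrays were Acta1, Ckm, Myh4, which encodes a fast myosin heavy chain, the myoglobin gene Mb (2.2 and 3.1) and the desmin gene Des (15.4 and 14.3).

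Sh3bgr had a signal of 12.1 in NKR-P1B+ cells and 524.5 in Ly49s3+ cells. It was below the floor in the former and above it in the latter, at least 25.7-fold higher with a log2 difference of −4.68. A higher floor, set at the 65th percentile, gave −3.31, and a lower one at the 35th percentile, which both signals exceeded, gave −5.44. In the order of all 9114 measured genes toward Ly49s3+ cells it stood in place 4. Sh3bgr has 1 probe set, so there was no second reading of the gene on the same arrays.

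The family member Sh3bgrl3, a small protein of the same fold without the glutamate-rich tail, did not share this pattern. Its signal was 410 in NKR-P1B+ cells and 342 in Ly49s3+ cells, a log2 difference of 0.26 in the opposite direction and within 1.5-fold. A list of 9 genes, covering glutaredoxins, thioredoxins, disulfide isomerases of related fold and the thioredoxin reductase gene Txnrd1, was measured in full. None of them was 2-fold apart, and 7 of the 9 (77.8%) were within 1.5-fold. Over all measured genes 1.21% were at least 2-fold higher in Ly49s3+ cells, 1.78% in NKR-P1B+ cells, and 89.2% were within 1.5-fold. With so few genes nothing about the fold is read from these counts. The mitochondrial thioredoxin gene Txn2 was 1.68-fold higher in Ly49s3+ cells (301 against 179) and Txnrd1, a flavoprotein that is not of this fold, had a difference of −0.59 (114 and 171), with −0.03 on another probe set. The list had a median difference of −0.16.

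**Figure D1:**
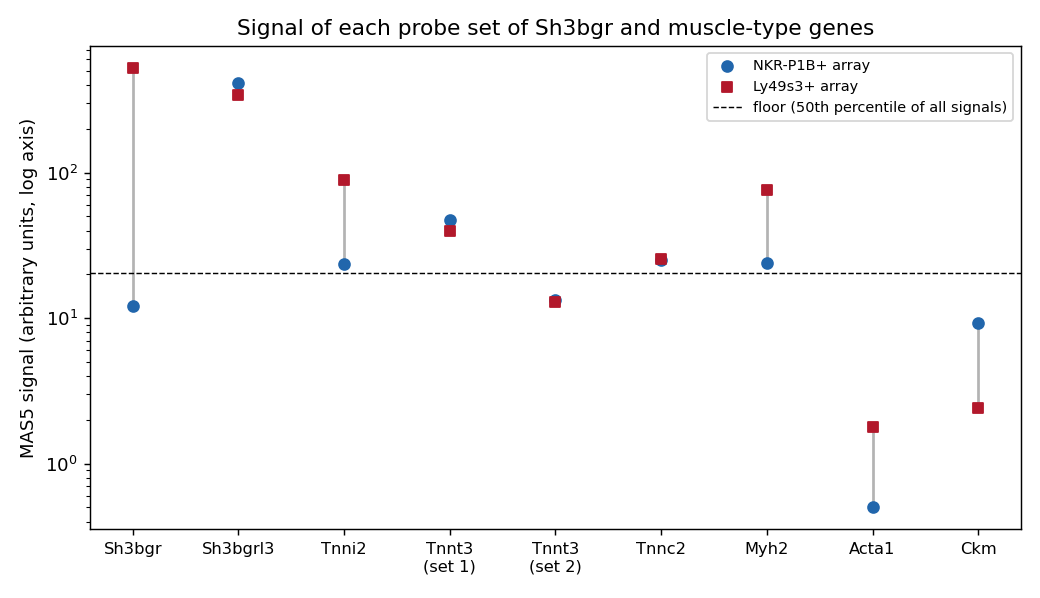
MAS5 signal (log axis, arbitrary units) of the 9 probe sets of Sh3bgr and the muscle-type genes in NKR-P1B+ cells (circles) and Ly49s3+ cells (squares), with the floor of 20.4 as a dashed line. Sh3bgr spans from 12.1 to 524.5, Tnni2 and Myh2 stand just above the floor in NKR-P1B+ cells, and both signals of Acta1 and Ckm lie below it.

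Tnni2 encodes the inhibitory troponin I of fast skeletal muscle. Its signal was 23.4 in NKR-P1B+ cells, just above the floor, and 88.6 in Ly49s3+ cells, 3.79-fold higher with a log2 difference of −1.92. It stood in place 12 of the measured genes toward Ly49s3+ cells. The other fast troponin subunits, at low signals, did not show a difference of this size. Tnnt3, the tropomyosin-binding subunit, had 46.9 and 39.7 on its brighter probe set, a difference of 0.24 in the opposite direction, and 13.4 and 12.9 on its other probe set, both below the floor. Tnnc2, the calcium-binding subunit, had 25.1 and 25.7, a difference of −0.03. Of the 3 fast troponin subunits only Tnni2, which was picked on this contrast, was at least 2-fold higher in Ly49s3+ cells. The share of all measured genes was 1.21%, so nothing is read from that count. All signals of Tnnt3 and Tnnc2 lay below the higher floor of 52.8, so their differences too rest on signals near the floor.

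Myh2, a myosin heavy chain gene of fast oxidative fibres, had 24.0 in NKR-P1B+ cells and 76.4 in Ly49s3+ cells. The ratio was 3.18-fold and the log2 difference −1.67, in place 20 toward Ly49s3+ cells. A probe set annotated with Myh2, Myh1 and Myh8 together was below the floor on both arrays, at 4.7 and 5.0, and so did not show the Myh2 difference. The thin filament gene Acta1, which encodes skeletal alpha-actin, had 0.5 and 1.8. Ckm, the muscle creatine kinase that buffers ATP in the fibre, had 9.2 and 2.4. Both genes were below the floor on both arrays, so no ratio is given.

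The differences of Tnni2 and Myh2 rested on signals near the floor. Under the higher floor of 52.8 they were −0.75 and −0.53, both under 2-fold, and with log2 of the value plus 32 they were −1.12 and −0.95, the latter under 2-fold.

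In all, 6 of the 8 genes were measured and 3 of these were at least 2-fold higher in Ly49s3+ cells, with 0 at least 2-fold higher in NKR-P1B+ cells. Over all measured genes 1.21% were at least 2-fold higher in Ly49s3+ cells and 1.78% in NKR-P1B+ cells. Since the 3 genes were picked on this contrast, nothing is read from that count. The other 3, Sh3bgrl3, Tnnt3 and Tnnc2, were within 1.5-fold, and 10.8% of all measured genes were at least 1.5-fold apart. Tnni2 and Myh2 had a mean signal under 100 (floored, on the log scale), a range in which differences were wider. Of the 3729 measured genes in it, 2.15% were at least 2-fold and 0.349% (13 genes, Tnni2 and Myh2 among them) at least 3-fold higher in Ly49s3+ cells. Pairs of probe sets of the same gene, each above the floor on both arrays, gave an SD per probe set. On the log2 scale it was 0.34 over 734 genes at signals under 100, and 0.24 over 1063 genes at signals from 100 to 500. The SD of the difference between 2 such probe sets is larger, by the square root of 2. Differences among animals, sorts or repeat arrays are not part of that spread.

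**Figure D2:**
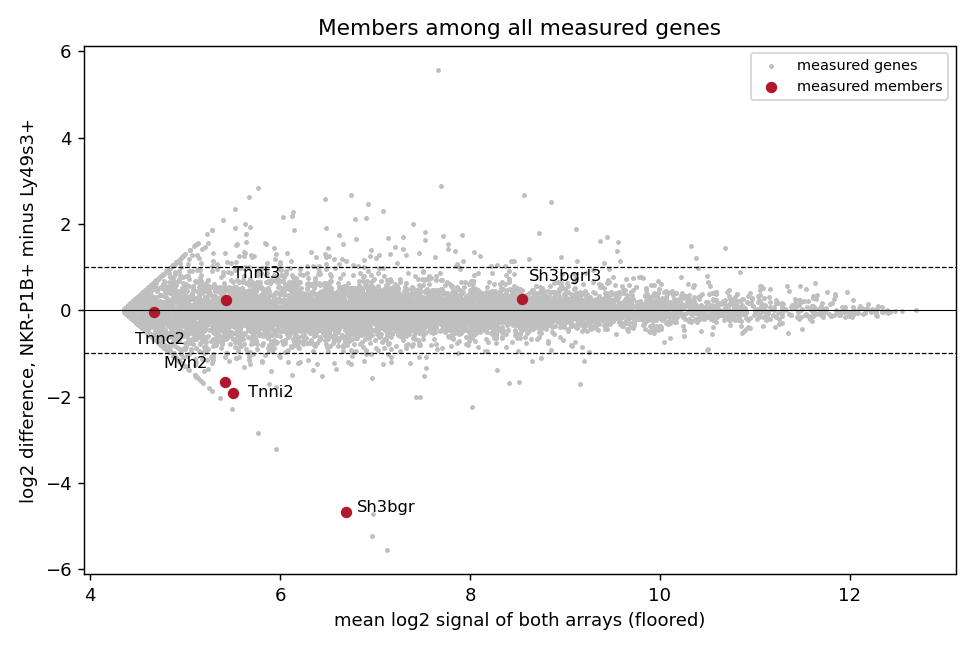
Log2 difference (NKR-P1B+ minus Ly49s3+) against the mean log2 signal of both arrays, with floored signals, for the 9114 measured genes (grey) and the 6 measured members (red), dashed lines marking 2-fold. Sh3bgr lies at −4.68, Tnni2 and Myh2 lie at −1.92 and −1.67 near the low end of signal, and the other 3 lie between the dashed lines.

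The wider muscle programme was examined with 7 gene lists, covering fast fibre genes, slow and cardiac genes, embryonic and perinatal myosins, the sarcomere scaffold, excitation-contraction coupling, muscle energy supply and myogenic transcription factors. Of their 99 genes with a probe set, 24 were measured, or 24.2%, against 64.1% of all 14217 genes. Genes at least 2-fold higher in Ly49s3+ cells numbered 2, and these were Tnni2 and Myh2 themselves. Without the 2, the other 97 genes held 22 measured genes, of which 0 were at least 2-fold higher in Ly49s3+ cells, 1 was at least 2-fold higher in NKR-P1B+ cells and 20 (90.9%) were within 1.5-fold. These shares are near those of all measured genes, of which 1.21% and 1.78% were at least 2-fold higher in Ly49s3+ and in NKR-P1B+ cells and 89.2% within 1.5-fold. The median difference of the 22 was −0.11, against −0.02 over all measured genes. With a lower floor of 9.6, the 35th percentile of all signals, 54 of the 99 genes were measured, and Tnni2 and Myh2 were again the 2 that were at least 2-fold higher in Ly49s3+ cells.

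Among fast fibre genes 7 of 15 were measured. Tpm1, which encodes an alpha-tropomyosin of muscle and other cells, was next after Tnni2 and Myh2, at 72.6 in NKR-P1B+ cells and 122 in Ly49s3+ cells, 1.68-fold higher with a difference of −0.75. Its other probe sets above the floor on both arrays gave −0.76 (20.6 and 34.9) and −0.16 (54.4 and 60.7). Myh1, a myosin heavy chain gene of fast fibres that lies next to Myh2 in the annotated order, was above the floor on both arrays in all 5 of its probe sets. These ran from 317 to 636 in NKR-P1B+ cells and from 246 to 574 in Ly49s3+ cells. Their differences lay between −0.10 and 0.45 with an SD of 0.22 across probe sets, with 4 of the 5 higher in NKR-P1B+ cells, opposite to Myh2. The probe set shared with Myh2 and Myh8 was below the floor, as given above. Which transcript the 5 probe sets read was not tested.

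Slow and cardiac genes were measured in 4 of 19. The calcium pump gene Atp2a2, which non-muscle cells use too, had 606 and 764 on its probe set of highest mean signal, with differences from −0.33 to 0.13 over the 4 of its probe sets that exceeded the floor in both populations, and the myosin-binding protein gene Mybpc3 had 78.4 and 87.8. The 4 differences lay between −0.33 and 0.16. None of the 4 embryonic and perinatal myosin genes was measured. Probe sets shared by the cardiac myosin genes Myh7 and Myh6 had 8.6 and 16.7, and 0.8 and 1.8, all below the floor.

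The sarcomere scaffold was measured in 2 of 19 genes, Myoz1 (32.2 and 35.5) and Tcap (13.5 and 22.7), both Z-disc genes. Excitation-contraction coupling genes were measured in 3 of 16, with Asph, which encodes junctin and other products, at 76.5 and 70.7, the calcium release channel gene Ryr1 at 32 and 33.9, and Jph2, which encodes a junctophilin that joins the membranes of the junction, at 13.7 and 24.4. These lists had median differences of −0.15 and −0.08. Tcap and Jph2 were below the floor in NKR-P1B+ cells, so their ratios are bounds, at least 1.11-fold and at least 1.20-fold higher in Ly49s3+ cells. The other 3 genes were within 1.5-fold.

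Energy supply was measured in 3 of 17 genes, all 3 nominally higher in NKR-P1B+ cells, with a median difference of 0.36. Ckb, the creatine kinase of brain and many non-muscle cells, had 422 in NKR-P1B+ cells and 164 in Ly49s3+ cells, 2.57-fold higher in the former with a difference of 1.36. Its muscle relative Ckm was below the floor, as given above. The phosphofructokinase gene Pfkm had 116 and 90.0, a difference of 0.36.

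Myogenic transcription factors were measured in 5 of 10 genes, with a median difference of −0.19 and all 5 within 1.5-fold on their probe sets of highest mean signal. Mef2a, which acts in lymphocytes as well as muscle, had 1595 and 1829 on its probe set of highest mean signal, and its 4 probe sets gave differences from −0.32 to 0.44. Srf, the factor that binds CArG boxes, had 376 and 428, and another of its probe sets, just below the floor in NKR-P1B+ cells, was at least 1.65-fold higher in Ly49s3+ cells (33.6 against 20.3). Mef2d had 158 and 132, a difference of 0.26, and its other probe set had 58.0 and 29.5, a difference of 0.98. Of the regulators that drive skeletal muscle formation, Myog was just above the floor in both populations (23.6 and 26.4) and Myod1 below it (1.2 and 0.3).

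**Figure D3:**
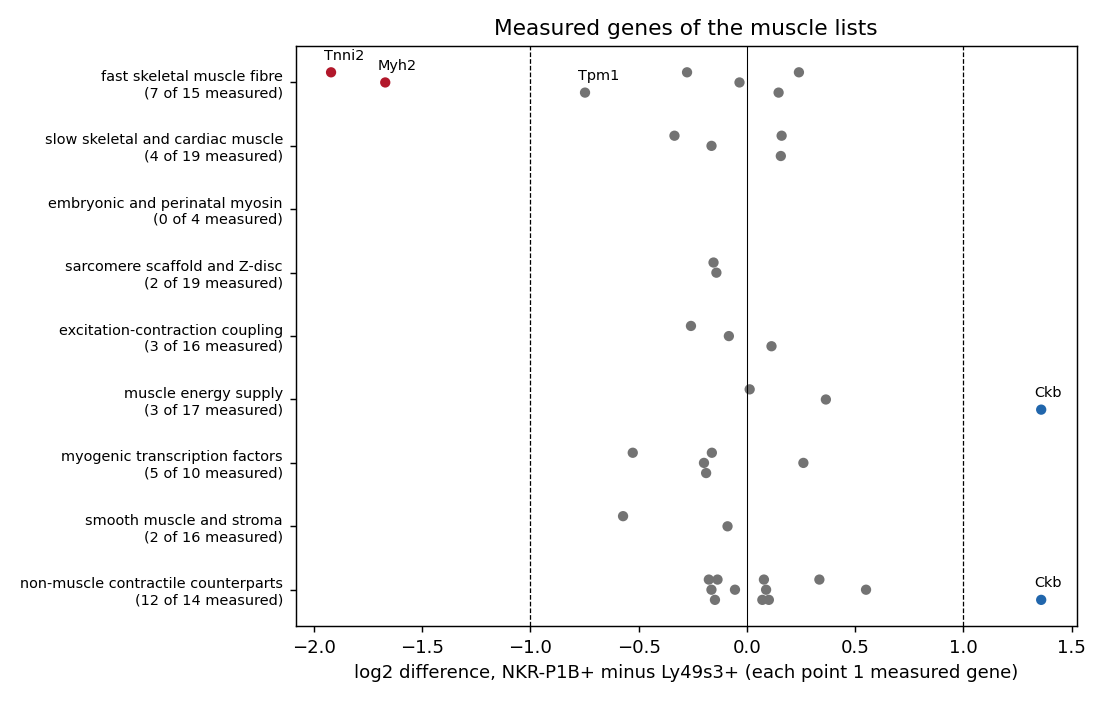
Log2 difference (NKR-P1B+ minus Ly49s3+) of every measured gene of the 7 muscle lists, of smooth muscle and stroma, and of the non-muscle counterparts, 1 point a gene, with dashed lines at 2-fold and red or blue points beyond them. Tnni2 and Myh2 are the 2 points beyond 2-fold toward Ly49s3+ cells, and Ckb, which is in 2 lists, is the one beyond 2-fold toward NKR-P1B+ cells.

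Of 14 contractile genes that non-muscle cells use, 12 were above the floor on both arrays. Their median difference was 0.08 and 11 of the 12 (91.7%) were within 1.5-fold, close to the 89.2% of all measured genes. The cytoplasmic actin gene Actg1 had 3937 in NKR-P1B+ cells and 4410 in Ly49s3+ cells, and the tropomyosin gene Tpm3 had 2714 and 3006. Ckb is the member of this list that was at least 2-fold apart. Smooth muscle and stromal genes were measured in 2 of 16, with Acta2 at 33.5 and 49.8, 1.49-fold higher in Ly49s3+ cells, and Sparc at 26.6 and 28.3. The 5 probe sets shared by Acta2 and the cardiac actin gene Actc1 were below the floor on both arrays, the highest at 19.7 and 14.9.

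**Figure D4:**
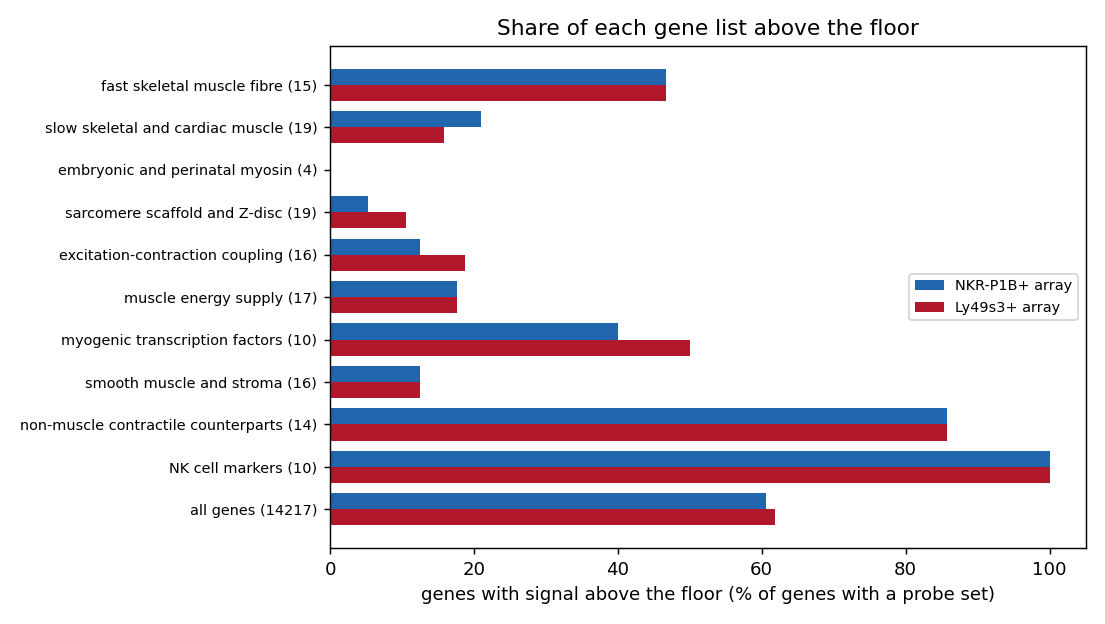
Share of the genes with a probe set whose signal was above the floor in NKR-P1B+ cells (blue) and in Ly49s3+ cells (red), for each list, with the number of genes in parentheses. The fast fibre list reached 46.7% on both arrays and the sarcomere scaffold 5.26% and 10.5%, against 60.5% and 61.9% of all genes and 100% of the NK markers.

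Markers of other cells were set beside these results, and their part in them was not tested. Over all genes with a probe set 60.5% were above the floor in NKR-P1B+ cells and 61.9% in Ly49s3+ cells. The presence of a cell type is therefore not read from the counts of markers above the floor. The summed signal of the 10 skeletal muscle fibre markers was 787 in NKR-P1B+ cells and 828 in Ly49s3+ cells, and 152 and 253.5 without Myh1. Both pairs of sums include Tnni2 (23.4 and 88.6) and Myh2 (24 and 76.4), which were picked on this contrast. Without these genes neither sum would be higher in Ly49s3+ cells, so nothing is read from them. Of 6 erythroid markers 2 were above the floor in NKR-P1B+ cells and 4 in Ly49s3+ cells, with sums of 371 and 345. In this list Hemgn (131 against 50.6, 2.59-fold) and the erythropoietin receptor gene Epor (35.8 against 15.5, at least 1.75-fold) were higher in Ly49s3+ cells and Hbb higher in NKR-P1B+ cells (276 against 153), and Klf1 was near 0 in both (1.5 and 1.5). The other probe sets of Epor gave a bound of 1.01-fold (20.7 against 17.0) and signals below the floor on both arrays (3.2 against 13.8). Of 8 T cell markers 5 and 6 were above the floor, with sums of 1024 and 873. Cd3g was 1.92-fold higher in Ly49s3+ cells (42.9 against 22.3). Higher in NKR-P1B+ cells were Cd5 (2.27-fold, 92.7 against 40.8) and Cd6 (1.52-fold, 273 against 179). Lat had 594 in NKR-P1B+ cells and 526.5 in Ly49s3+ cells, and Lat and Cd6 hold most of both sums. Both Cd3e probe sets were below the floor on both arrays. Macrophage markers were above the floor in 2 of 9 on each array, with sums of 440.3 and 226, and Lyz2 was 2.68-fold higher in NKR-P1B+ cells (356 against 133). B cell markers were above the floor in 1 and 0 of 5, with sums of 50.8 and 38.5. The 16 smooth muscle and stromal markers had sums of 167.5 and 194, with Tagln near 0 (1.1 and 0.6). In such bulk samples a larger share of cells of a type and more RNA per cell cannot be told apart.

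The genes that stand on either side of Sh3bgr, Tnni2 and Myh2 in the annotated gene order were also compared, taking the 3 nearest protein-coding genes with a probe set on each side. Around Sh3bgr, the galactosyltransferase gene B3galt5 was the nearest such gene on one side, at 36.6 in NKR-P1B+ cells and 61.6 in Ly49s3+ cells, 1.68-fold higher in the latter. Get1, which helps insert membrane proteins, was the nearest on the other side, at 62.5 and 78.5, a difference of −0.33. Hmgn1, a nucleosome-binding protein gene, had a difference of −0.38 (2077 and 2699) and Brwd1 one of 0.00 (42.9 and 42.8), while Igsf5 and Pcp4 were below the floor on both arrays. None of the 6 neighbours came near the difference of at least 25.7-fold of Sh3bgr, and 5 of them were within 1.5-fold or not measured. Sh3bgr was picked on this contrast and stood in place 4 of the 9114 measured genes, so few genes could match it. Since 89.2% of all measured genes were within 1.5-fold, nothing about the locus is read from these counts.

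Around Tnni2, none of the 6 neighbours had a ratio or a bound of 1.5-fold. Since 89.2% of all measured genes were within 1.5-fold, nothing is read from that count. Syt8, a synaptotagmin gene that lies inside the annotated span of Tnni2, was below the floor in NKR-P1B+ cells (7.3) and at 28.7 in Ly49s3+ cells, at least 1.41-fold higher. Ifitm10 had 22.1 and 27.6, and Ctsd, the gene of the lysosomal protease cathepsin D, 268 and 236. Both stand between Tnni2 and Syt8 in the order of start positions, so they too start within that span. On the other side Dusp8 had 76.8 and 52.2, Mob2 254.5 and 216, and Tollip 228 and 185, all higher in NKR-P1B+ cells. They are not the closest genes on that side, since protein-coding genes without a probe set of their own lie between. Around Myh2, the neighbours include the myosin genes Myh3, Myh4 and Myh8, all below the floor on both arrays, and Myh1, at a difference of 0.15 on its probe set of highest mean signal. Sco1, a copper chaperone gene of cytochrome oxidase, had a difference of −0.16 and Adprm one of −0.09.

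**Figure D5:**
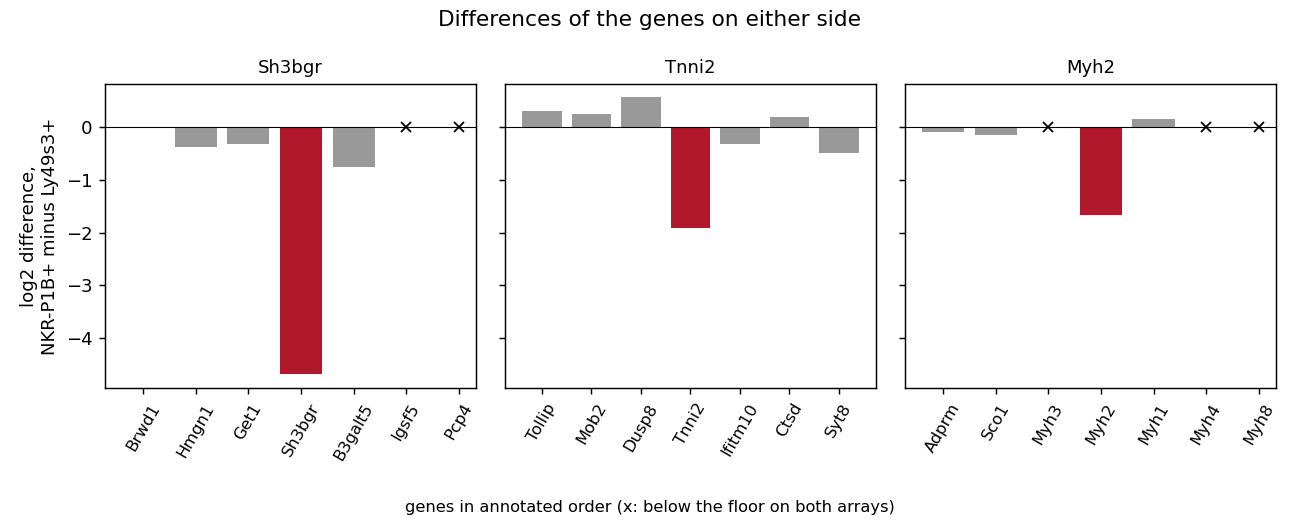
Log2 difference (NKR-P1B+ minus Ly49s3+) of Sh3bgr, Tnni2 and Myh2 (red bars) and of the 3 nearest genes with a probe set on each side (grey bars), in annotated order, with a cross for genes below the floor on both arrays. B3galt5, at −0.75, has the largest difference of the neighbours, against −4.68 for Sh3bgr.

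The genes whose pattern was most like that of Sh3bgr were found among the 509 measured genes at or below the floor in NKR-P1B+ cells, ordered by their difference over the 2 arrays. Sh3bgr stood in place 3 of these. Klra5 (at least 47.2-fold, 7.5 against 962.5) and Klra22 (at least 37.5-fold, 13.9 against 764) stood before it. Klra4 (at least 9.25-fold, 18.1 against 189), Fcrl6 (at least 7.13-fold, 10.2 against 145) and Grik1 (at least 4.91-fold, 10.3 against 100.1) came after it. The Klra genes encode Ly49 receptors, the family of the sorted Ly49s3, and their probe sets may share signal with it. Fcrl6 encodes an Fc receptor-like protein of cytotoxic lymphocytes and Grik1 a glutamate receptor subunit. The floor stands in for the NKR-P1B+ signal of all these genes, so their order is that of their Ly49s3+ signals alone. The floor decides which genes enter. At the lower floor of 9.6 Sh3bgr, at 12.1 in NKR-P1B+ cells, would not be among them.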

How the data were processed

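Total RNA of sorted spleen cells (3 ug) was labelled as biotinylated cRNA and hybridised to 1 Affymetrix rat array per population, per the labels. The sources used here do not give how the 9 rats were pooled or divided, nor the version, scaling target or detection calls of MAS5, which the submitters' processing notes name. The deposited file holds linear intensity values, 1 per probe set and array. With 2% trimmed from each end both arrays averaged 100.04, so they share a scale, the genes were not centred, and the scaling factor stays unknown. The 3′ to 5′ ratio of the actin control was 11.9 in NKR-P1B+ cells and 13.2 in Ly49s3+ cells. Signal of that transcript was thus much higher at its 3′ end on both arrays. Whether probe sets far from the 3′ end of other genes fell below the floor for this reason was not tested.

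Of 31099 probe sets, 20826 had 1 gene symbol in the platform annotation, 436 had several and 9780 non-control sets had none. Signals below 20.4, the 50th percentile over both arrays without controls, were set to it before log2 was taken (Python 3.11.15, pandas 2.3.3). Each gene took its probe set of highest mean log2 signal, and genes past 2-fold were counted. With 1 array per population no p-value was computed. For the probe-set spread, the differences of 2 probe sets of a gene, both above the floor, were subtracted, and the SD over genes was divided by the square root of 2. Fold counting was tested on simulated data, with changes placed only in genes well above the floor and noise smaller than the probe-set spread. Recovery of changes near the floor was thus not covered. Gene order came from RefSeq for GRCr8, used for neighbours only.

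The members and the 16 gene lists set beside them were chosen with earlier results of these data known. The rule named all members, up to 4 genes per direction of each list at least 1.5-fold apart, the 2 of highest mean signal per list, 3 neighbours per side and the 5 genes most like Sh3bgr. Some genes that the rule named are not given here. Other list genes, and markers given for their low signal, were named after their values were seen. Alternatives were floors at the 35th and 65th percentiles, log2 of the value plus 32, median centring, quantile normalisation, scaling to the poly-A spikes, and the mean over probe sets.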

Additional observations from a re-analysis of the deposited data

How the results depend on the processing

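Sh3bgr, Tnni2 and Myh2 were higher in Ly49s3+ cells under all 7 alternatives, with sizes that depended on the treatment of low signals. The alternatives rework the same signals on which these genes were picked, so the shared direction is no independent support. Each of these genes has 1 probe set of its own, so the mean over probe sets left their values unchanged. With the floor at the 65th percentile (52.8) the log2 differences were −3.31 for Sh3bgr, −0.75 for Tnni2 and −0.53 for Myh2. Then 1 member (Sh3bgr) was at least 2-fold apart, 12 genes of the muscle lists were measured, and 0 of these were at least 2-fold higher in Ly49s3+ cells. The higher floor lies above the NKR-P1B+ signals of all 3 genes. With log2 of the value plus 32 the differences were −3.66, −1.12 and −0.95, and 1 muscle list gene, Tnni2, was at least 2-fold higher there. With the floor at the 35th percentile, Sh3bgr was above the floor on both arrays at −5.44, and 54 muscle list genes were measured. Scaling to the poly-A spikes gave −4.44, −1.43 and −1.18 and moved the median of genes above the floor on both arrays to 0.47. All genes then counted as 2-fold higher numbered 34 in Ly49s3+ cells and 548 in NKR-P1B+ cells, against 110 and 162. The floors at the 35th and 65th percentiles gave 298 and 273, and 43 and 86, the added value 37 and 77, and the other settings 87 to 108 and 129 to 178. Ckb was at least 2-fold higher in NKR-P1B+ cells under every alternative. No paired analysis was possible because each population is 1 array. Differences near the floor rest on low signals, and variation between animals was not measured.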
